A study of Homo sapiens with 9 samples.

Results

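The interferon-stimulated genes described here are a listed set of 40 human genes that cells switch on when interferon is present. They were found by symbol in the deposited gene table, where each of the 40 matched 1 of 57905 Ensembl IDs. Of the 40, 34 passed the filter on low counts that 16916 genes passed in all. The other 6 were below it and were not tested in the main fit. The cells were A549, an established human lung adenocarcinoma line. The 3 groups of 3 libraries were cells given scrambled controls (titled plko), cells in which an shRNA lowered AKR1B1 (shAKR1B1) and cells in which an shRNA lowered SORD (shSORD), all grown in medium with serum. An shRNA is a short hairpin RNA that the cell cuts into a guide for degrading a matching transcript. AKR1B1 (aldose reductase) and SORD (sorbitol dehydrogenase) are the enzymes of the polyol pathway, which the series relates to cancer cell aggressiveness.

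Total counts per library ranged from 32436524 to 43044456. Levels are given as CPM, counts per 1000000 after scaling of the libraries. AKR1B1 was at 1395 to 1456 CPM in control libraries and 146 to 167 CPM with shAKR1B1, and SORD was at 41.7 to 44.1 CPM in control libraries and 8.18 to 9 CPM with shSORD, so both targets were low in the libraries labelled for them. Each target was also lower with the other hairpin, SORD at 30.2 to 31 CPM with shAKR1B1 (log2 fold change -0.49, adjusted p = 6.43e-06, edgeR) and AKR1B1 at 945 to 1135 CPM with shSORD (-0.41, adjusted p = 0.000131, edgeR). Each group stands for 1 hairpin label, and the 3 libraries of a group are not said to come from separate transductions, and the p-values then reflect variation among libraries that may be technical alone. Whether the control cells carried a hairpin is not settled by the labels, and no library from untransduced or interferon-treated cells was analysed here. A response that every vector gives would therefore be present in all 9 libraries and not appear as a difference. Summed, the epithelial markers (4 keratins, EPCAM and CDH1) were at 8686 to 8908 CPM in control, 12317 to 12941 with shAKR1B1 and 10748 to 12800 with shSORD. KRT7, KRT8 and KRT18 made up most of that sum, while KRT19 and EPCAM were at only 5.9 and 3.06 CPM in control. KRT7 fell with both hairpins (log2 fold change -0.76 with shAKR1B1 and -0.21 with shSORD). KRT8, KRT18, KRT19, CDH1 and EPCAM rose with both, EPCAM by 1.78 and 2.35. Of 8 leukocyte markers, 5 had under 10 counts in every library, CD3E and MS4A1 at 0, and the same held for 3 of 4 plasmacytoid dendritic cell markers and all 4 endothelial markers. The other 3 leukocyte markers moved with the hairpins: CD14 fell (log2 fold change -0.83 with shAKR1B1 and -1.38 with shSORD), ITGAM rose (0.87 and 1.31), and LYZ rose from 1 to 2 counts per library to 19 to 27 and 3 to 11. The summed leukocyte markers were at 11 to 12.2, 9.58 to 11.4 and 9.35 to 11.6 CPM in the 3 groups, and their part in the results was not tested.

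Interferons are secreted proteins that infected cells release as an alarm. Type I interferons bind the receptor IFNAR1/IFNAR2, whose kinases JAK1 and TYK2 activate STAT2. With IRF9 it acts in the complex ISGF3, which binds the interferon-stimulated response element in the promoters of the genes described here. Upstream, sensors such as RIG-I (RIGI), MDA5 (IFIH1), PKR (EIF2AK2) and TLR3 detect RNA with paired strands, and this is the known route by which some hairpins or small interfering RNAs start an interferon response.

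The response element was searched for in the promoters. RefSeq promoter windows (GRCh38.p14, 250 bases before to 50 after the start) were found for 32 of the 40 genes. The core of the response element (GAAA NN GAAA, where N is any base), searched on both strands, was present in 22 of the 32 genes, in 26 of their 43 windows (60.5%) and in 1255 of all 35116 windows (3.57%). TTCNNNGAA, the core of the STAT-binding gamma-activated site, which reads the same on both strands, was present in 12 of the 43 windows (27.9%) and in 7.66% of all windows. The stretches that follow come from 6 genes that hold the first motif before the start. Among such genes with values for every library and a mean of at least 50 counts, they had the largest changes against control, as described further on. BST2 and MX1, below that mean count, also hold the motif before a start and changed more. Capitals mark the motif, which on the opposite strand reads TTTC NN TTTC, and each stretch is on the strand of its gene.
ISG15, chr1:1013359-1013424, plus strand: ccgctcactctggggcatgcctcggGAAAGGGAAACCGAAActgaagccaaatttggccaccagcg
SAMD9, chr7:93118081-93118140, minus strand: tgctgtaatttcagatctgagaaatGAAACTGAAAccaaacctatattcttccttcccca
IFIH1, chr2:162318685-162318868, minus strand: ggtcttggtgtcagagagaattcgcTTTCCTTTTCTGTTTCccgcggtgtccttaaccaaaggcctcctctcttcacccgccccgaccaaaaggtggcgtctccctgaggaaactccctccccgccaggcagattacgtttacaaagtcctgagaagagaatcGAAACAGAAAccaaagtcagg
ISG20, chr15:88638922-88638981, plus strand: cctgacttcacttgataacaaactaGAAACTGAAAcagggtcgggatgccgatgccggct
HERC5, chr4:88456969-88457079, plus strand: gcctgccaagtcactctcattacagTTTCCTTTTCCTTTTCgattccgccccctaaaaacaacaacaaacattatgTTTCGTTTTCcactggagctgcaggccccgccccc
IFIT5, chr10:89414498-89414567, plus strand: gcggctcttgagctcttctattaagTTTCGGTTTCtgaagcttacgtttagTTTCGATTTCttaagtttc

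In ISG15 and at the first site of IFIH1 and HERC5, 2 matches overlap and run on as 1 block. The windows of IRF9, STAT2 and OAS1 held no GAAA NN GAAA, which says only that these letters are not in that window. IRF9 and OAS1 held TTCNNNGAA, with capitals marking it here. This pair was chosen after its values were seen, because both genes were higher with both hairpins.
IRF9, chr14:24161177-24161235, plus strand: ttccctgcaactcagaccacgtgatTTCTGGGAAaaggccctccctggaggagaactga
OAS1, chr12:112906769-112906827, plus strand: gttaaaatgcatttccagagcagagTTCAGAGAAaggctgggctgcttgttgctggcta

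In control cells the 40 genes spanned a very wide range of levels. Per kilobase of exon, IFITM2, a membrane protein that blocks virus entry, was at 20.1 CPM per kilobase and OAS3 at 17.7, followed by IFI35 (11.2), UBE2L6 (11), IFI6 (6.81) and OAS1 (6.64). ISG15 was at 3.22, IFIT1 at 1.01, IRF9 at 0.341 and MX1 at 0.202 CPM per kilobase. At the low end stood genes that interferon is known to induce strongly from a low base. Per control library, MX2 had 8 to 9 counts, RSAD2 (viperin) 2 to 7, IFI44 5 to 12, IFI44L 2 to 6, EPSTI1 1 to 6 and XAF1 0 to 1. With shAKR1B1 the same 6 genes had at most 8 counts in any library, and with shSORD at most 7. In the same order, their counts were 3 to 6, 1 to 3, 5 to 8, 1, 3 to 5 and 0 to 2 with shAKR1B1. With shSORD they were 0 to 3, 2 to 3, 0 to 3, 0 to 3, 0 to 7 and 0 to 2. These differences were not tested in the main fit. An alternative fit with no expression filter did include these genes, and its values for them are not given here. OAS2 passed the filter although it had only 9 to 14 counts in a control library, 6 to 13 in an shAKR1B1 library and 2 to 11 in an shSORD library. None of these 7 genes reached 15 counts in any of the 9 libraries.

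**Figure D1:**
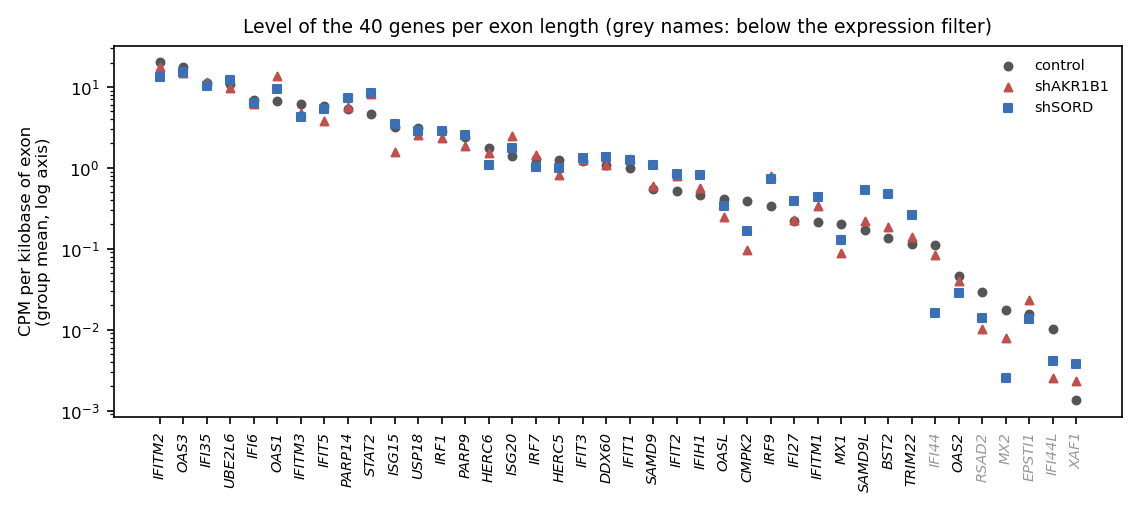
Mean level of each of the 40 genes in control, shAKR1B1 and shSORD libraries (n = 3 each), as CPM per kilobase of exon on a log axis, ordered by the control level. Levels run from 20.1 CPM per kilobase for IFITM2 in control cells down to the 6 genes below the expression filter, named in grey.

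With either knockdown, single genes of the set were called in both directions. With shAKR1B1, 6 of the 34 tested genes were higher and 12 lower than control, against 27.8% and 29.6% of all 16916 tested genes (edgeR quasi-likelihood test, Benjamini-Hochberg adjusted p under 0.05, n = 3 per group). The median log2 fold change of the 34 was 0.03, beside -0.00 over all tested genes. With shSORD, 14 were higher and 7 lower, against 27.5% and 29% of all tested genes, and the median was 0.11 beside -0.00. Called changes of at least 2-fold were found for 5 genes with each hairpin, beside 12.4% of all genes with shAKR1B1 and 11.1% with shSORD. With shAKR1B1 these were IRF9 and OAS1 (higher, 8.45% of all genes) and CMPK2, MX1 and ISG15 (lower, 3.93%). With shSORD they were BST2, SAMD9L, TRIM22 and IRF9 (higher, 8.02%) and CMPK2 (lower, 3.1%). The summed level of the 40 genes was 490.5 to 499 CPM in control libraries, 503 to 517 with shAKR1B1 and 530.1 to 531 with shSORD. Without OAS3, PARP14, STAT2 and OAS1, which make up much of that sum, it was 231 to 233, 204 to 215 and 223 to 234 CPM. Those genes had the highest mean counts over all libraries, but in control IFITM2 (31.1 CPM) was above STAT2 (28.5 CPM). STAT2 and OAS1 were called higher with both hairpins, PARP14 higher with shSORD, and OAS3 lower with both. The second sum therefore depends on which genes are left out. In bulk RNA, fewer cells with a transcript and less of it per cell cannot be told apart. Both comparisons use the same 3 control libraries, so their values are set side by side and not counted as agreement.

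**Figure D2:**
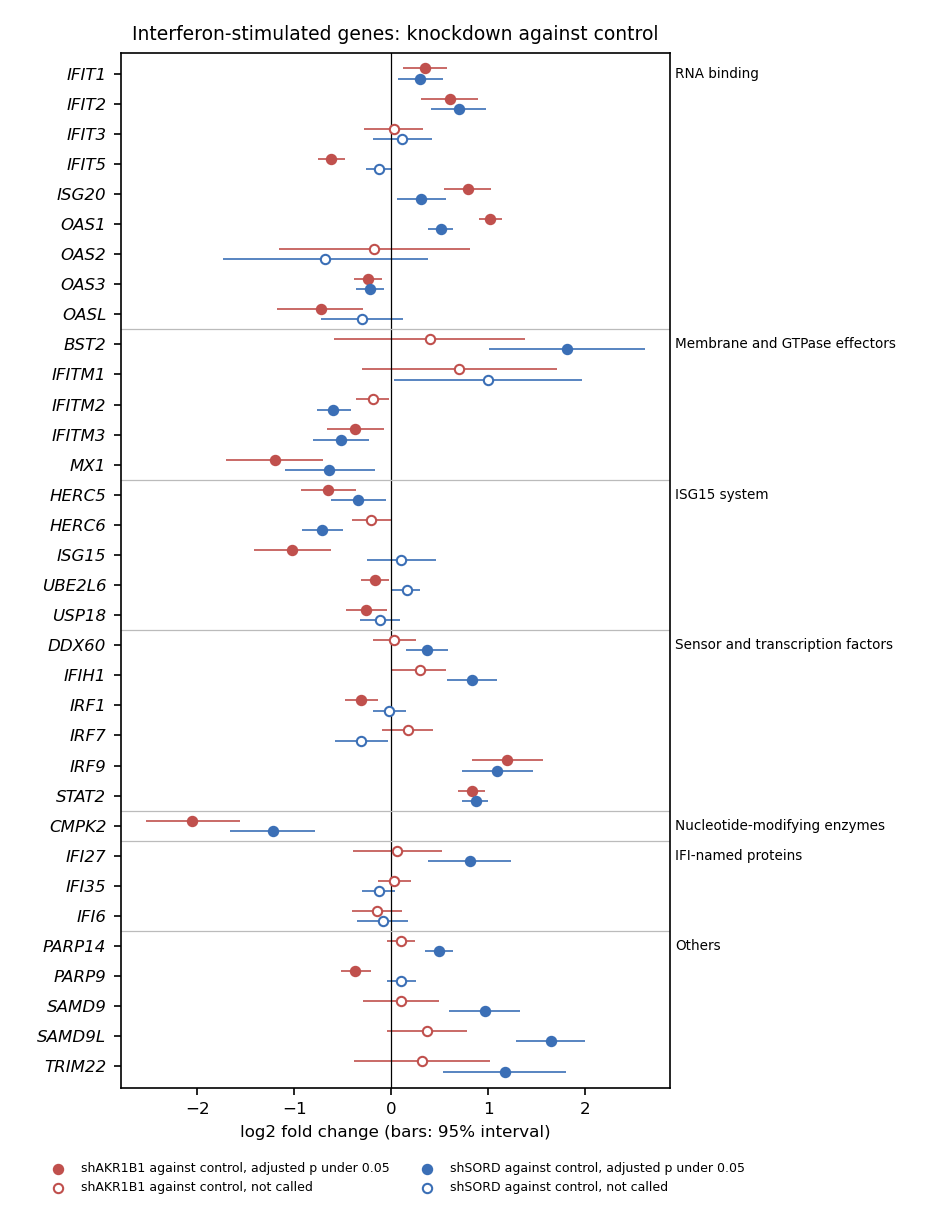
Log2 fold change of the 34 tested genes with shAKR1B1 (red) and shSORD (blue) against control, grouped by role, with 95% intervals not adjusted for multiple tests; filled points passed adjusted p under 0.05. IRF9, STAT2 and OAS1 lie to the right of 0 with both hairpins and CMPK2 and MX1 to the left. SAMD9L lies at 1.64 with shSORD and at 0.37, not called, with shAKR1B1.

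Among the transcription factors of the pathway, STAT2 and IRF9, which both act in ISGF3, were higher with both hairpins. STAT2 was at 28.5, 29.6 and 27.4 CPM in the control libraries, at 52.9, 49.2 and 49.6 CPM with shAKR1B1 and at 54.7, 50.9 and 50.4 CPM with shSORD. All 6 knockdown libraries lay above all 3 control libraries, and the log2 fold changes were 0.83 (SE 0.0628, adjusted p = 4.1e-08, edgeR) and 0.87 (SE 0.0627, adjusted p = 3.51e-08, edgeR). IRF9, the DNA-binding subunit, was at 1.57, 1.11 and 1.2 CPM in control libraries, at 3.37, 2.89 and 2.67 CPM with shAKR1B1 and at 2.33, 2.9 and 3.03 CPM with shSORD. It rose 2.29-fold and 2.13-fold (log2 fold change 1.19 and 1.09, adjusted p = 2.96e-05 and 7.71e-05), from 42 to 57 counts per control library. In GENCODE 29 another gene model covers 48.44% of the IRF9 exon bases on the same strand, so the IRF9 counts are uncertain where the models share sequence.

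IRF1 and IRF7, transcription factors that act in interferon induction and in its amplification, did not share the rise of IRF9. IRF1 was at 21.5, 23.6 and 22 CPM in control libraries, at 18, 19.5 and 16.6 CPM with shAKR1B1 and at 21.4, 23.9 and 20.9 CPM with shSORD. The shAKR1B1 libraries lay below both other groups (log2 fold change -0.31, adjusted p = 0.00358 against control), and the shSORD value was -0.02 (adjusted p = 0.857). IRF1 shares 22% of its exon bases with an antisense gene of 43 to 122 counts per library, and the strand setting of the counting is not given in the sources used here. IRF7, the factor that amplifies type I interferon production, was at 3.76, 3.1 and 3.23 CPM in control libraries, at 3.8, 3.87 and 3.64 CPM with shAKR1B1 and at 3.11, 2.58 and 2.46 CPM with shSORD. Neither change against control passed (0.17, adjusted p = 0.272, and -0.31, adjusted p = 0.0549). For shSORD the call depended on the fit, with adjusted p = 0.0266 without shSORD replicate 1.

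The sensor MDA5 (IFIH1), a helicase that binds long paired RNA, rose with shSORD. Its level was 2.46, 2.15 and 2.49 CPM in control libraries, 2.94, 2.59 and 3.13 CPM with shAKR1B1 and 4.32, 4 and 4.31 CPM with shSORD. The groups did not overlap, and the log2 fold change with shSORD was 0.83 (SE 0.122, adjusted p = 4.23e-05), a rise of 1.78-fold. The shAKR1B1 value of 0.29 did not pass (adjusted p = 0.0682), but did without shAKR1B1 replicate 2 (0.38, adjusted p = 0.0371). DDX60, a helicase described as a partner of RIG-I-like sensors, was at 7.07, 7.66 and 6.97 CPM in control libraries, at 7.9, 7.62 and 6.68 CPM with shAKR1B1 and at 8.75, 8.78 and 10.4 CPM with shSORD. It rose with shSORD (0.37, adjusted p = 0.00567) and overlapped control with shAKR1B1 (0.03, adjusted p = 0.821).

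The RNA-binding effectors split within their own families. OAS1, which makes oligoadenylates when it binds paired RNA, was at 32.2, 33.7 and 32.6 CPM in control libraries, at 66.8, 64.1 and 68.9 CPM with shAKR1B1 and at 46.2, 48.3 and 45.5 CPM with shSORD. The 3 groups were fully apart, with a rise of 2.03-fold with shAKR1B1 (log2 fold change 1.02, SE 0.058, adjusted p = 1.94e-09) and 1.42-fold with shSORD (0.51, adjusted p = 3.83e-06). OAS3, the longest enzyme of the family and its next gene on chromosome 12, was at 147, 146 and 144 CPM in control libraries, at 122, 116 and 132 CPM with shAKR1B1 and at 113, 130.4 and 133 CPM with shSORD. It fell a little with both (-0.24, adjusted p = 0.00582, and -0.22, adjusted p = 0.0109). Those calls ended without shAKR1B1 replicate 2 (-0.18, adjusted p = 0.0572) and without shSORD replicate 1 (-0.14, adjusted p = 0.0927). OASL, a catalytically inactive relative that enhances RIG-I signalling, fell with shAKR1B1 from 1.46 ± 0.209 to 0.872 ± 0.165 CPM (-0.73, adjusted p = 0.00746) and did not pass with shSORD (-0.30, adjusted p = 0.205).

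The IFIT proteins, which bind viral RNA ends, lie side by side on chromosome 10 and also went separate ways. IFIT2 was at 2.4, 1.8 and 2.21 CPM in control libraries, at 3.52, 3.26 and 2.97 CPM with shAKR1B1 and at 3.39, 3.44 and 3.56 CPM with shSORD. Every knockdown library was above every control library (log2 fold change 0.60, adjusted p = 0.0016, and 0.70, adjusted p = 0.000447). IFIT1, the cap-binding member, was at 4.53, 5.17 and 4.3 CPM in control libraries, at 5.67, 6.24 and 5.87 CPM with shAKR1B1 and at 6.16, 5.24 and 5.84 CPM with shSORD. Its small rises (0.35, adjusted p = 0.012, and 0.30, adjusted p = 0.0259) did not hold without control replicate 3 (0.30 and 0.25, adjusted p = 0.0519 and 0.0994), and with shSORD the call also ended without control replicate 1 or shSORD replicate 1 (adjusted p = 0.0817 and 0.0779). IFIT3, which stabilises IFIT1 on RNA, was at 3.1 to 3.31 CPM in control libraries and did not pass with either hairpin (0.03, 95% interval -0.28 to 0.33, and 0.11, interval -0.19 to 0.42). IFIT5 was at 22.9, 23.4 and 23.7 CPM in control libraries, at 14.7, 14.7 and 16.2 CPM with shAKR1B1 and at 21, 21.4 and 21.8 CPM with shSORD. It fell 1.54-fold with shAKR1B1 (-0.62, SE 0.0664, adjusted p = 1.59e-06), while the shSORD value of -0.13 did not pass (adjusted p = 0.112).

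ISG20, an exonuclease that degrades single-stranded RNA, was at 10.4, 9.52 and 11.5 CPM in control libraries, at 19.1, 19 and 16.2 CPM with shAKR1B1 and at 13.5, 14.9 and 10.6 CPM with shSORD. It rose 1.73-fold with shAKR1B1 (log2 fold change 0.79, adjusted p = 3.67e-05). With shSORD replicate 3 lay among the controls, and the rise of 0.31 (adjusted p = 0.0337) was lost when control replicate 1 or 2 was left out (adjusted p = 0.0862 and 0.138) and when shSORD replicate 1 or 2 was left out (0.0828, and 0.132 with a value of 0.20).

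Of the 5 genes of the ISG15 system, 4 were called lower and none higher with shAKR1B1, beside 29.6% and 27.8% of all tested genes, and the calls of 2 of the 4 (UBE2L6 and USP18) ended under several alternatives. With shSORD, 2 were called lower and none higher, beside 29% and 27.5%. ISG15 is a ubiquitin-like protein that UBE2L6 and HERC5 attach to other proteins and USP18 removes. ISG15 itself was at 3.18, 2.47 and 3.46 CPM in control libraries, at 1.29, 1.48 and 1.69 CPM with shAKR1B1 and at 3.19, 3.95 and 2.63 CPM with shSORD. The shAKR1B1 libraries lay below all 6 others, with a log2 fold change of -1.02 (SE 0.187, adjusted p = 0.000284, a fall of 2.02-fold), and the shSORD value was 0.10 (adjusted p = 0.624). HERC5, the ligase, was at 5.5, 5.99 and 6.59 CPM in control libraries, at 3.64, 3.95 and 3.94 CPM with shAKR1B1 and at 4.82, 3.8 and 5.67 CPM with shSORD. It fell with shAKR1B1 (-0.65, adjusted p = 0.00082). With shSORD the groups overlapped, and the fall of 0.34 on the log2 scale (adjusted p = 0.0371) was lost when control replicate 2 or 3 was left out (adjusted p = 0.0741 and 0.156) and when shSORD replicate 1 or 2 was left out (0.077, and 0.154 with a value of -0.20).

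The other genes of that system changed less. UBE2L6, the conjugating enzyme, was at 24.2, 24.6 and 23.6 CPM in control libraries, at 22.3, 21.8 and 20.5 CPM with shAKR1B1 and at 28.7, 26.6 and 25.5 CPM with shSORD. Its fall with shAKR1B1 (-0.17, adjusted p = 0.0467) ended when any 1 control or shAKR1B1 library was left out (0.0604 to 0.17) and with RLE or upper-quartile scaling (0.0615 and 0.199), and the shSORD value of 0.16 did not pass (adjusted p = 0.0571), but did without shSORD replicate 3 (0.21, adjusted p = 0.00767) and with RLE or upper-quartile scaling (0.0476 and 0.00967). USP18, which also blocks the interferon receptor, was at 6.99, 6.76 and 5.95 CPM in control libraries, at 5.42, 5.33 and 5.68 CPM with shAKR1B1 and at 5.72, 5.97 and 6.47 CPM with shSORD. Its fall with shAKR1B1 (-0.26, adjusted p = 0.0347) ended without control replicate 1, control replicate 2, shAKR1B1 replicate 1 or shAKR1B1 replicate 2 (adjusted p = 0.124, 0.0989, 0.085 and 0.124). HERC6, the gene beside HERC5 on chromosome 4, was at 10.4, 11.1 and 9.21 CPM in control libraries, at 8.76, 9.2 and 8.61 CPM with shAKR1B1 and at 5.7, 6.1 and 6.95 CPM with shSORD. It fell 1.64-fold with shSORD (-0.71, adjusted p = 2.45e-05). The shAKR1B1 value of -0.21 did not pass (adjusted p = 0.0779), but did without control replicate 3 (-0.26, adjusted p = 0.0485).

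**Figure D3:**
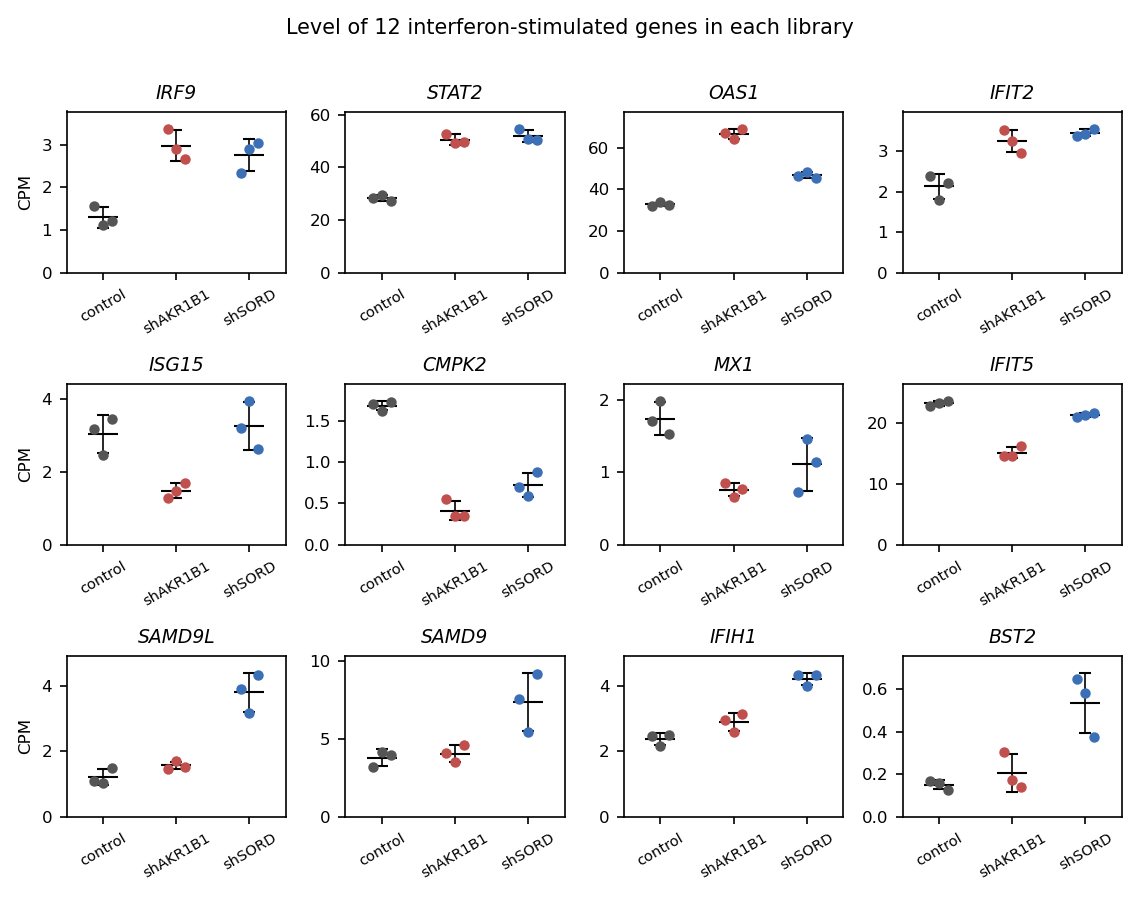
CPM in each library for 12 of the genes (points), with the mean and SD of the 3 libraries of a group (bars); each vertical axis starts at 0. ISG15 is low in the shAKR1B1 libraries alone (1.29 to 1.69 CPM), and SAMD9L is high in the shSORD libraries alone (3.17 to 4.34 CPM).

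CMPK2, MX1 and BST2 are named for the size of their changes, seen after the fact, although their mean was under 50 counts per library. CMPK2, a mitochondrial nucleotide kinase whose gene adjoins RSAD2 on chromosome 2, was at 1.71, 1.62 and 1.73 CPM in control libraries, at 0.551, 0.345 and 0.348 CPM with shAKR1B1 and at 0.699, 0.585 and 0.878 CPM with shSORD. This was the steepest fall among the 34 genes with either hairpin, 4.13-fold (log2 fold change -2.05, SE 0.226, adjusted p = 2.2e-06) and 2.34-fold (-1.22, adjusted p = 0.000119), from 61 to 68 counts per control library. MX1, a dynamin-like GTPase that traps viral components, was at 1.71, 1.99 and 1.53 CPM in control libraries, at 0.858, 0.666 and 0.766 CPM with shAKR1B1 and at 0.725, 1.46 and 1.15 CPM with shSORD. It fell 2.29-fold with shAKR1B1 (-1.20, adjusted p = 0.000496). Its fall with shSORD (-0.64, adjusted p = 0.0217) ended without control replicate 2 (-0.53, adjusted p = 0.0902) or shSORD replicate 1 (-0.39, adjusted p = 0.114). BST2 (tetherin), which holds budding virus at the cell surface, was at 0.166, 0.159 and 0.127 CPM in control libraries, at 0.306, 0.173 and 0.139 CPM with shAKR1B1 and at 0.647, 0.585 and 0.376 CPM with shSORD. It rose with shSORD from 5 to 6 counts per control library to 15 to 25 (log2 fold change 1.81, SE 0.375, adjusted p = 0.000808), so the size of that fold is uncertain.

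The IFITM proteins, which stop virus fusion at membranes and lie together on chromosome 11, were lower with shSORD where abundant. IFITM2 was at 31.2, 30.3 and 31.7 CPM in control libraries, at 27.6, 27.8 and 26.3 CPM with shAKR1B1 and at 23.3, 20.2 and 18.1 CPM with shSORD. It fell 1.51-fold with shSORD (-0.60, adjusted p = 2.06e-05). With shAKR1B1 the value was -0.19 (adjusted p = 0.054), and it passed without shSORD replicate 1, 2 or 3 in the shared estimate of spread (adjusted p = 0.0398, 0.0321 and 0.0161). IFITM3 was at 8.06, 8.35 and 8.65 CPM in control libraries, at 6.95, 6.71 and 5.82 CPM with shAKR1B1 and at 5.96, 7.09 and 4.39 CPM with shSORD. It fell with shSORD (-0.52, adjusted p = 0.00442, and -0.34, adjusted p = 0.0122, without shSORD replicate 3). The fall with shAKR1B1 (-0.37, adjusted p = 0.0307) ended without control replicate 1, 2 or 3 (adjusted p = 0.0504, 0.0662 and 0.105) and without shAKR1B1 replicate 2 or 3 (0.0606 and 0.125). IFITM1, with 8 to 32 counts in all libraries, did not pass (0.70, adjusted p = 0.214, and 1.00, adjusted p = 0.0724), but did with shSORD without shSORD replicate 2 (1.25, adjusted p = 0.0255) or shSORD replicate 3 (1.28, adjusted p = 0.0196). These genes are close copies, and IFITM1 and IFITM2 models share 351 exon bases, so reads could be split or lost between them.

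SAMD9L and SAMD9, neighbouring genes on chromosome 7 whose products restrict poxviruses and translation, rose with shSORD. SAMD9L was at 1.1, 1.03 and 1.5 CPM in control libraries, at 1.47, 1.7 and 1.53 CPM with shAKR1B1 and at 3.91, 3.17 and 4.34 CPM with shSORD. The shSORD libraries lay above all 6 others, with a log2 fold change of 1.64 (SE 0.17, adjusted p = 1.36e-06, a rise of 3.12-fold). The shAKR1B1 value of 0.37 did not pass (adjusted p = 0.114), but did without control replicate 3 (0.57, adjusted p = 0.0325). SAMD9 was at 3.18, 4.19 and 4 CPM in control libraries, at 4.07, 3.5 and 4.62 CPM with shAKR1B1 and at 7.59, 5.44 and 9.15 CPM with shSORD. It rose 1.95-fold with shSORD (0.96, adjusted p = 0.00024) and overlapped control with shAKR1B1 (0.10, adjusted p = 0.656).

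PARP14 and PARP9 are ADP-ribosyltransferase family members encoded near each other on chromosome 3. PARP14 was at 54.2, 56.6 and 55.1 CPM in control libraries, at 62.3, 58.7 and 56.8 CPM with shAKR1B1 and at 83.4, 70.4 and 79 CPM with shSORD. It rose 1.4-fold with shSORD (0.49, adjusted p = 2.17e-05) and did not pass with shAKR1B1 (0.10, adjusted p = 0.221). PARP9 was at 20.2, 23.2 and 20.5 CPM in control libraries, at 16.1, 17 and 16.4 CPM with shAKR1B1 and at 23.7, 22.1 and 22.8 CPM with shSORD. It fell with shAKR1B1 (-0.37, adjusted p = 0.000519) and did not pass with shSORD (0.10, adjusted p = 0.23). TRIM22, an antiviral ubiquitin ligase, rose with shSORD from 0.688 ± 0.0508 to 1.56 ± 0.501 CPM (1.17, adjusted p = 0.00375), and IFI27, a mitochondrial protein, from 0.905 ± 0.237 to 1.59 ± 0.146 CPM (0.81, adjusted p = 0.00289). Neither passed with shAKR1B1 (0.32, adjusted p = 0.42, and 0.06, adjusted p = 0.822). IFI6 and IFI35 did not pass with either hairpin, with 95% intervals within -0.41 and 0.20 on the log2 scale, although IFI35 passed with shSORD without shSORD replicate 2 (-0.20, adjusted p = 0.0409). Beside the rises with shSORD, the summed level of 5 fibroblast markers, mostly COL1A1, was 32.7 to 47.6 CPM with shSORD, 14.6 to 16.1 CPM in control and 8.49 to 9.99 CPM with shAKR1B1 libraries. The part of this difference in the results was not tested.

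The hairpins were compared directly with each other, which tests where their effects differ. Of the 34 genes, 5 were higher and 14 lower with shAKR1B1 than with shSORD, against 15.5% and 15.1% of all tested genes (30.7% in either direction), and the median log2 fold change was -0.29 beside 0.01. The 5 higher genes were OAS1 (0.51, adjusted p = 6.79e-06), HERC6 (0.50, adjusted p = 0.0013), ISG20 (0.47, adjusted p = 0.00507), IRF7 (0.47, adjusted p = 0.0109) and IFITM2 (0.40, adjusted p = 0.00148). The largest differences the other way were BST2 (-1.42, adjusted p = 0.00664), SAMD9L (-1.27, adjusted p = 2.7e-05) and ISG15 (-1.12, adjusted p = 0.000278). These 3 were the called differences of at least 2-fold, beside 2.72% of all genes lower and 5.19% either way by that size. SAMD9 differed by -0.86, IFI27 by -0.74, IFIH1 by -0.54, IFIT5 by -0.49, PARP9 by -0.47, PARP14 by -0.39 and UBE2L6 by -0.32 (adjusted p at most 0.00951). CMPK2 (-0.82, adjusted p = 0.0254), TRIM22 (-0.85, adjusted p = 0.0348), DDX60 (-0.34, adjusted p = 0.018) and IRF1 (-0.29, adjusted p = 0.011) completed the 14.

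Those last 4 calls ended under some alternatives. The call ended for DDX60 (-0.26, adjusted p = 0.0943) and IRF1 (-0.23, adjusted p = 0.0663) without shAKR1B1 replicate 3. For CMPK2 it ended without shAKR1B1 replicate 2 or 3 (both -0.71, adjusted p = 0.0986 and 0.103) and without shSORD replicate 3 (-0.66, adjusted p = 0.0792). It also ended with no library left out, in DESeq2 (-0.82, adjusted p = 0.0516) and in a fit of these groups alone (-0.83, adjusted p = 0.0523). For TRIM22 it ended in a fit of these groups alone (-0.86, adjusted p = 0.0627), without shAKR1B1 replicate 1 or 2 (-0.70 and -0.63, adjusted p = 0.127 and 0.142) and without shSORD replicate 1 (-0.56, adjusted p = 0.176), while its value was -1.33 without shAKR1B1 replicate 3. STAT2 and IRF9 did not differ detectably between the hairpins, at -0.04 (95% interval -0.17 to 0.09) and 0.10 (-0.22 to 0.42), nor did IFIT1 at 0.05 (-0.18 to 0.27), IFIT2 at -0.10 (-0.37 to 0.17) or OAS3 at -0.02 (-0.17 to 0.12). MX1 (-0.56, adjusted p = 0.104) and HERC5 (-0.30, adjusted p = 0.108) did not pass, but did without shSORD replicate 1 (-0.79, adjusted p = 0.0181) and shSORD replicate 2 (-0.45, adjusted p = 0.0108) respectively.

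**Figure D4:**
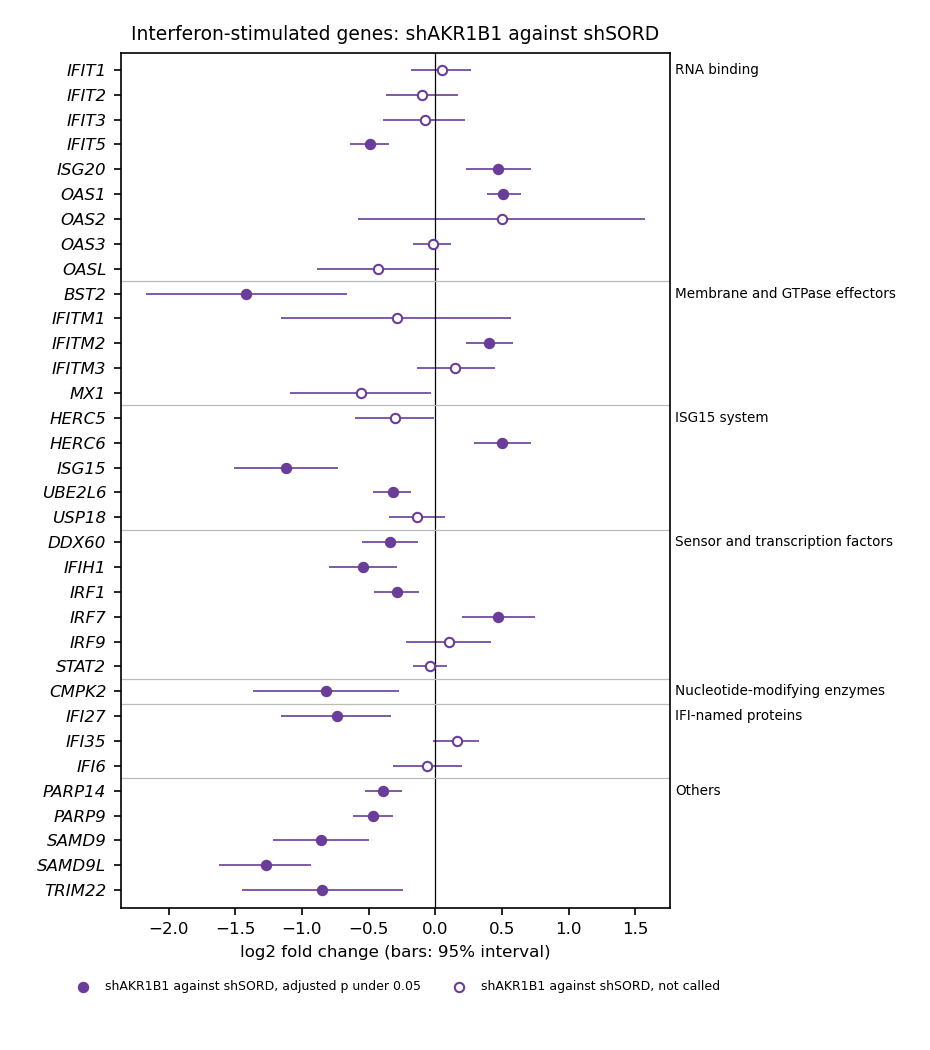
Log2 fold change of the 34 tested genes with shAKR1B1 against shSORD, by role, with 95% intervals; values below 0 are lower with shAKR1B1. Filled points passed adjusted p under 0.05, 14 of them left of 0, with BST2 (-1.42) the lowest, and 5 right of 0, with OAS1 (0.51) the highest.

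Among the interferon genes, only IFNE had more than 1 count in any library. Of 21 genes for type I, II and III interferons, 19 had 0 counts in all 9 libraries, IFNB1 and IFNG among them. A count of 0 allows up to 3 counts, or 0.0696 to 0.0919 CPM depending on the library, for counting error only. IFNA2 had 1 count in 1 library. IFNE, an epithelial interferon named after its values were seen, as the only one to pass the filter, was at 1.1, 0.955 and 1.04 CPM in control libraries, at 1.01, 1.21 and 1.16 CPM with shAKR1B1 and at 1.86, 1.27 and 1.91 CPM with shSORD. It rose with shSORD (0.70, adjusted p = 0.00605) and did not pass with shAKR1B1 (0.13, adjusted p = 0.602). The chemokines CXCL9, CXCL10 and CXCL11, strong targets of interferon also named after their values were seen, had 0 to 3 counts in every library.

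Of the lists of other pathway genes that follow, the counts called stand beside 57.4% of all tested genes called in either direction with shAKR1B1 and 56.5% with shSORD. Of 15 listed sensors of RNA and DNA, 13 were tested, with 3 higher and 4 lower with shAKR1B1 and 4 higher and 4 lower with shSORD (medians -0.15 and -0.05), a share near that of all genes. RIG-I (RIGI), which binds RNA ends with a triphosphate, was at 10.8 ± 0.222 CPM in control cells, 9 ± 0.348 CPM with shAKR1B1 and 11.7 ± 1.49 CPM with shSORD. It fell with shAKR1B1 (-0.26, adjusted p = 0.0279), a call that ended without any 1 control library, shAKR1B1 replicate 1 or shAKR1B1 replicate 3 (adjusted p = 0.051 to 0.0824), and did not pass with shSORD (0.12, adjusted p = 0.272, but 0.0257 without shSORD replicate 2). PKR (EIF2AK2), the kinase that halts translation on binding paired RNA, did not pass (0.02, 95% interval -0.16 to 0.20, and -0.05, -0.23 to 0.13). STING1, the adaptor of DNA sensing, rose 2.37-fold with shAKR1B1 and 2.07-fold with shSORD (adjusted p = 0.000183 and 0.000922) from 1.24 ± 0.188 CPM. TLR3, the endosomal RNA receptor, rose with shSORD to 3.02 ± 0.538 from 1.74 ± 0.167 CPM (0.79, adjusted p = 0.000501) and was at 1.44 ± 0.0416 CPM with shAKR1B1 (-0.28, adjusted p = 0.184), and the hairpins differed (-1.07, adjusted p = 0.000115).

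Of 11 genes for receptors, kinases and their transcription factors, 5 were higher and 2 lower with shAKR1B1 and 7 higher and 1 lower with shSORD (medians 0.20 and 0.31). The shSORD calls of IFNAR1, IFNGR2 and IFNLR1 (higher) and of STAT3 (lower) ended under several alternatives. With shAKR1B1, IFNAR1 and IFNLR1 passed as higher only under some alternatives. IFNAR2, the type I receptor chain named after its values were seen, rose by 0.53 and 0.52 (adjusted p = 3.37e-06 and 5.34e-06). IL10RB, a chain of the type III interferon receptor, rose by 0.67 and 0.49 (adjusted p = 7.88e-07 and 2.43e-05). Of 6 negative regulators, 3 were higher and 1 lower with shAKR1B1 and 2 higher and 1 lower with shSORD, beside 57.4% and 56.5% of all genes called either way. PTPN11, a phosphatase of JAK signalling, fell with shSORD from 255 ± 4.54 to 165 ± 12.5 CPM (-0.63, adjusted p = 3.06e-07).

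Of 11 targets of interferon gamma, 4 were tested, with 2 higher and 1 lower with shAKR1B1 and 3 higher and 1 lower with shSORD, beside 57.4% and 56.5% of all genes called either way. GBP3, a guanylate-binding protein, rose 2.74-fold and 2.68-fold (adjusted p = 1.05e-07 and 1.67e-07) from 2.69 ± 0.442 CPM, and GBP2 rose 2.39-fold and 1.7-fold (adjusted p = 8.41e-07 and 0.000163). GBP1 rose with shSORD (1.13, adjusted p = 7.84e-05), was not called with shAKR1B1 (-0.46, adjusted p = 0.0753), and the hairpins differed (-1.59, adjusted p = 1.21e-05). WARS1, a tRNA synthetase, fell by 0.68 and 0.37 on the log2 scale (adjusted p = 3.51e-07 and 0.000138). In the RNA interference machinery, 1 of 10 genes was higher and 4 lower with shAKR1B1, and 2 were higher and 5 lower with shSORD, again beside 57.4% and 56.5%. AGO4, an Argonaute, rose by 0.65 and 0.51 (adjusted p = 6.16e-06 and 7.55e-05), and DGCR8, the partner of Drosha, fell by 0.61 and 0.40 (adjusted p = 2.68e-06 and 0.000169). DICER1, which cuts hairpins, was at 91.5 ± 1.1, 94.4 ± 4.61 and 106 ± 12.3 CPM (0.04, adjusted p = 0.624, and 0.21, adjusted p = 0.0263), and the shSORD call ended without control replicate 1 or 2 (adjusted p = 0.0605 and 0.0811) and without shSORD replicate 1 (0.0572).

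**Figure D5:**
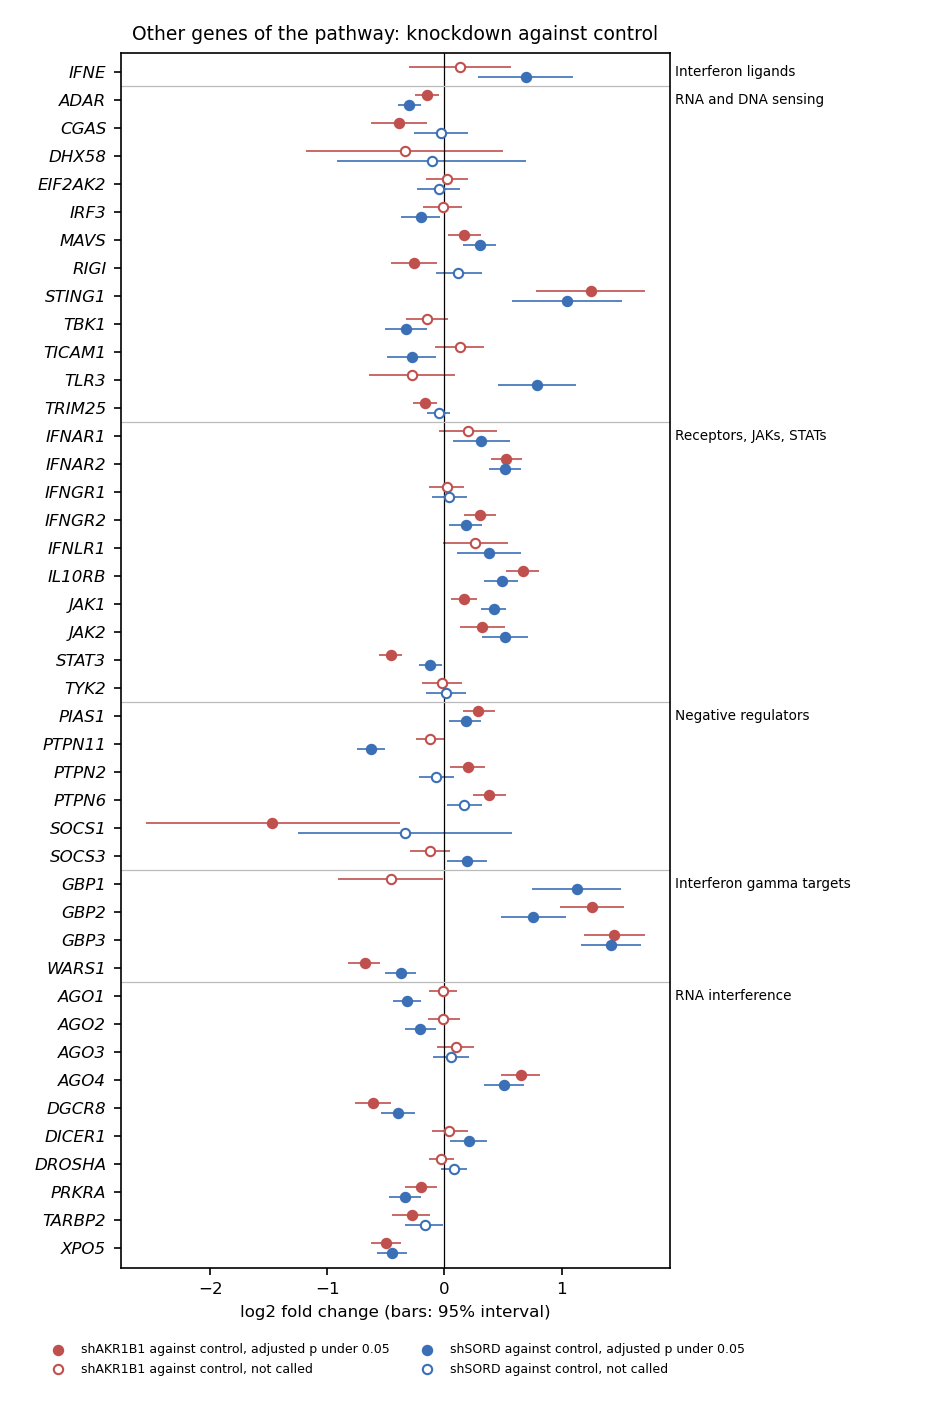
Log2 fold change with shAKR1B1 (red) and shSORD (blue) against control for tested genes of the interferon pathway outside the set that are reported here, by list, with 95% intervals; filled points passed adjusted p under 0.05. STING1, GBP2 and GBP3 lie right of 0 with both hairpins, and TLR3 and GBP1 are filled to the right of 0 with shSORD and open with shAKR1B1.

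The promoter motif was found among genes that moved either way. With shAKR1B1, 2 of the 5 higher genes with a window and 7 of the 10 lower genes with a window held GAAA NN GAAA. With shSORD these were 8 of 12 higher and 4 of 6 lower genes, and among the genes below the filter 4 of 5. Of the genes printed earlier with the motif, SAMD9 and IFIH1 rose with shSORD, and ISG20 rose with both hairpins. ISG15, HERC5 and IFIT5 fell with shAKR1B1, and HERC5 also fell with shSORD. The shSORD calls of ISG20 and HERC5 ended under some alternatives. These counts describe letters in the windows and were not tested.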

How the data were processed

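Extraction with Qiazol and miRNeasy was followed by TruSeq stranded mRNA preparation, per the labels' protocols. The submitters' processing notes name GRCh37, DESeq2 1.12.3, featureCounts 1.5.1 (Subread), STAR 2.5.2b and cutadapt 1.9.1. The deposited values are the authors' whole-number counts per Ensembl gene, not normalized. Not given in the sources used here are the annotation release, the strand setting and the handling of multi-mapping reads.

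Counts were scaled by TMM, filtered by group and tested with edgeR 4.0.16 (limma 3.58.1, R 4.3.3), 1 mean per group over all 9 libraries, with Benjamini-Hochberg adjustment over 16916 genes and a threshold of 0.05. SE is the absolute log2 fold change over the square root of F. The fit was first tested on simulated counts. DESeq2 1.42.0, other scalings, other filters, a replicate block and leaving out each library were alternatives. Exon lengths came from GENCODE 29. Replicates differed beyond sampling noise, most of all with shSORD. Chi-square per gene was 2.37 to 5.72 in control, 3.36 to 6.33 in shAKR1B1 and 12.8 to 26.9 in shSORD libraries. The main fit used 1 shared estimate of spread for all groups. Same-numbered shAKR1B1 and shSORD libraries deviated together (correlations 0.102, 0.193 and 0.144), and control libraries did not. Genes with a mean of at least 50 counts called in any comparison have values per library. Pathway genes are named from a 1.5-fold called change at that mean count, and IFNB1, RIGI, EIF2AK2 and DICER1 regardless; some listed pathway genes enter the list counts but are not reported here. Genes and lists were chosen with earlier results of these data known, and 1 of 74 pathway entries (IKBKE) matched no ID.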

Additional observations from a re-analysis of the deposited data

How the results depend on the processing

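Across 16 alternatives per comparison against control, and 17 between the knockdowns, every count of the 40 genes called higher or lower stayed within 1.5 times its value above, and no called gene changed sign. With shAKR1B1, 6 to 8 were called higher and 8 to 14 lower, with shSORD 12 to 16 and 5 to 9, and between the knockdowns 5 to 6 and 11 to 15. These ranges include genes below the main filter where an alternative tested them, as the fit with no expression filter did. The calls of 13 of 18, 16 of 21 and 15 of 19 genes held in every alternative that tested them, and the causes of the other losses were not tested. With the replicate block, 6 were higher and 13 lower with shAKR1B1, 14 and 8 with shSORD and 5 and 14 between the knockdowns. That block treats same-numbered libraries as belonging together, which the labels do not state. An added block fit of the 6 knockdown libraries, chosen after seeing the data, also gave 5 and 14. The block added calls for IFITM2 with shAKR1B1 and IRF7 with shSORD (adjusted p = 0.0389 and 0.048) and ended no call among the 40 genes. Upper-quartile scaling moved the median of all genes by at most 0.07 on the log2 scale and ended the calls of UBE2L6, USP18 and IFITM3 with shAKR1B1 and of OAS3 and HERC5 with shSORD (adjusted p = 0.199, 0.0975, 0.0683, 0.0703 and 0.0851). Genes under about 15 counts per library limit what could be seen.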
